A study of Mus musculus with 6 samples.

Results

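The genes described here make, export, sense and destroy sphingosine-1-phosphate, a lipid messenger of blood and lymph. The rows of S1pr1, S1pr2, S1pr3, Sphk1, Sphk2, Sgpl1 and Spns2 were taken by gene symbol, which gave 7 genes of the 19131 in each file. All 7 passed the filter on low counts and are among the 15035 genes tested. They were measured by bulk RNA-seq of whole skin from mouse embryos at embryonic day 17.5 on the C57BL/6N background, in 3 Tie1 knockout and 3 control libraries. TIE1 is a receptor tyrosine kinase of endothelial cells, and the series asks what its loss does to vessel sprouting and vein assembly. The titles write the groups as Tie1ECDKO and Tie1ECDWT. The sources used here do not say what the letters ECD stand for, in which cells Tie1 was deleted, or from which litter and body site each piece of skin was taken. Nor do they say whether each library is a separate embryo, so the p-values measure the spread between these libraries, which may be technical.

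Sphingosine is phosphorylated by the sphingosine kinases SPHK1 and SPHK2 to sphingosine-1-phosphate, which leaves the cell through the transporter SPNS2, and the lyase SGPL1 breaks it down for good. Outside the cell it acts on G protein-coupled receptors. S1PR1, which couples to Gi, stabilises endothelial junctions and restrains sprouting, and mice without it die before birth with vessels poorly covered by mural cells. S1PR2 and S1PR3, which also couple to G12/13 and Gq, are found on vessel walls and many other cells. Red blood cells, platelets and lymphatic endothelium are known sources of the lipid.

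No difference between Tie1 knockout and control skin was called for any of the 7 genes. By edgeR's quasi-likelihood test with Benjamini-Hochberg adjustment over all 15035 genes, 0 of the 7 passed an adjusted p of 0.05, beside 0.160% of all genes tested. DESeq2 and limma-voom also called 0 of the 7, beside 1.24% and 0.0998% of all genes. Before adjustment 0 of the 7 had a p under 0.05, beside 7.42% of all genes. The log2 fold changes (knockout over control throughout) ran from -0.12 to 0.51, with 6 above 0 and 1 below, and their median was 0.056 beside 0.0038 over all genes. The precision differed widely between genes. The 95% interval allowed Sgpl1 at most a 1.14-fold rise, and allowed Spns2 anything between 0.717-fold and 2.84-fold.

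The label check came out as the titles say. Tie1 (gene 21846, chromosome 4, 118471191 to 118489849) had 84, 53 and 46 reads in the knockout libraries, against 1187, 1023 and 1215 in the control libraries, or -4.20 as a log2 fold change (SE 0.23; edgeR, adjusted p = 0.00387). Library totals were 19826856 to 20591164 estimated reads. The skin identity was plain in every library, with the basal keratinocyte keratin Krt5 at 2949 to 4232 CPM in knockout and 2535 to 4519 CPM in control skin (CPM, TMM-scaled counts per 1000000 reads). No 2 libraries were duplicates, since counts of any pair differed by 10.5 to 54.7 times the sampling variance. Replicate 1 of both groups stood apart from the rest in hair follicle genes. The summed level of 7 follicle markers was 12.5, 56.0 and 88.5 CPM in knockout libraries 1, 2 and 3, and 13.3, 59.4 and 149 CPM in control libraries 1, 2 and 3. Posterior Hox genes differ along the body axis, and 8 of them summed to 59.7, 74.6 and 74.4 CPM in the knockout libraries and 72.2, 44.7 and 37.7 CPM in the control libraries.

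**Figure D1:**
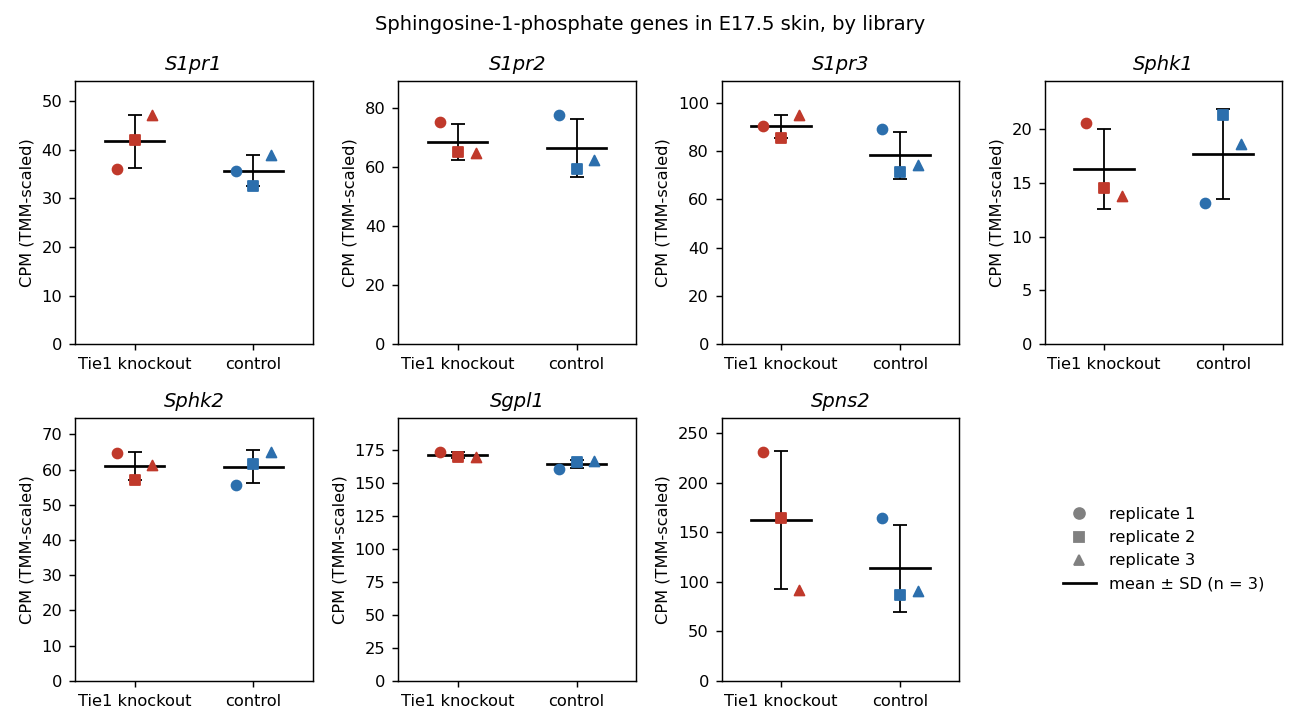
TMM-scaled CPM of the 7 genes in each library, knockout left of control, with marker shape for the replicate number, a bar for the mean and whiskers for the SD (n = 3 each). Spns2 spreads from 86.4 to 231 CPM within and between groups, while Sgpl1 keeps to 161 to 174 CPM.

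Of the 7 genes, the receptor genes S1pr3 and S1pr1 had the smallest unadjusted p, 0.0692 and 0.0898, and neither passed the test. S1pr1 (gene 13609, chromosome 3, 115710433 to 115715055), the endothelial receptor, measured 36.1, 42.0 and 47.1 CPM in the knockout libraries, against 35.6, 32.6 and 39.0 CPM in the control libraries. The knockout libraries 2 and 3 lay above all controls, and knockout library 1 lay among them, so the groups overlapped. The means were 41.7 ± 5.52 and 35.7 ± 3.18 CPM (SD, n = 3 each). The log2 fold change was 0.23 (SE 0.12, 95% interval -0.045 to 0.49, edgeR adjusted p = 0.710), and it was 0.13 without knockout library 3.

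S1pr3 (gene 13610, chromosome 13, 51408618 to 51422797), a receptor of vascular smooth muscle and endothelium, had 90.4, 85.5 and 94.8 CPM in knockout skin and 89.3, 71.2 and 74.4 CPM in control skin. Control library 1 reached the knockout range and the other two controls stood below it. Means of 90.2 ± 4.64 and 78.3 ± 9.68 CPM gave a log2 fold change of 0.20 (SE 0.096, 95% interval -0.021 to 0.43, edgeR adjusted p = 0.685). With the posterior Hox score as a covariate it was 0.050, and without control libraries 1 and 2 in turn it was 0.31 and 0.13, none past the test (edgeR adjusted p = 0.909, 0.302 and 0.931). Of the 10 mural cell markers, 1, Pdgfrb, was called higher, beside 0.0865% of all genes tested, and the other 9 were not called. The 10 summed to 907 to 943 CPM in knockout and 783 to 855 CPM in control skin, and did not move together. The pericyte marker Rgs5 lay higher in every knockout library, at 111 CPM or more in knockout against 73.3 to 101 CPM in control skin. The smooth muscle markers Myh11 and Cnn1 lay lower in every knockout library, at 22.6 to 40.4 CPM and 0.992 to 1.23 CPM in knockout against 55.4 to 58.3 CPM and 2.27 to 3.85 CPM in control skin. Abcc9 also lay higher in every knockout library, and Tagln lower. In the smooth muscle marker Acta2 the groups overlapped, at 170 to 191 CPM in knockout against 173 to 220 CPM in control skin. Cspg4, Kcnj8 and Notch3 overlapped as well. Of all genes tested, 7.03% were separated higher and 6.78% lower. The part of the mural markers in the S1pr3 values was not tested.

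S1pr2 (gene 14739, chromosome 9, 20965952 to 20976793), a receptor that couples strongly to G12/13, had 75.6, 65.3 and 64.7 CPM in the knockout libraries, against 77.7, 59.3 and 62.5 CPM in the control libraries. Replicate 1 was the high library in both groups. The log2 fold change of 0.044 (SE 0.12, 95% interval -0.23 to 0.32, edgeR adjusted p = 0.949) turned to -0.032, -0.039 and -0.0053 without knockout library 1, control library 2 and control library 3.

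Because S1PR1 is known above all as a receptor of endothelium, its level was also set against the endothelial content of each library. The 17 pan-endothelial markers, such as Pecam1 and Cdh5, were all tested and 0 were called. They summed to 914 to 1068 CPM in knockout and 897 to 969 CPM in control skin, but did not move together. Plvap lay lower in every knockout library, at 49.4 to 58.6 CPM against 78.7 to 83.0 CPM in control skin, as did Emcn. Cd93 lay higher in every knockout library, at 129 to 161 CPM against 107 to 117 CPM, as did Pecam1, Robo4 and Myct1. In the other markers of the list the groups overlapped. Of all genes tested, 7.03% were separated higher and 6.78% lower. Of 6 venous endothelial markers, 3 were called lower in knockout skin (edgeR), beside 0.0732% of all genes tested. S1pr1 was set relative to the mean log2 CPM of the 17 pan-endothelial markers. It stood at -0.0086, 0.18 and 0.18 in the knockout libraries, against -0.21, -0.19 and 0.0023 in the control libraries. Knockout library 1 lay just under control library 3, so these ratios overlapped as well. The difference was 0.25 on the log2 scale (two-sided exact permutation p = 0.2, adjusted p = 0.6 over the 3 ratios tested; the smallest p that 3 against 3 allows is 0.1). In bulk skin, fewer cells of a type and less RNA per cell cannot be told apart.

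**Figure D2:**
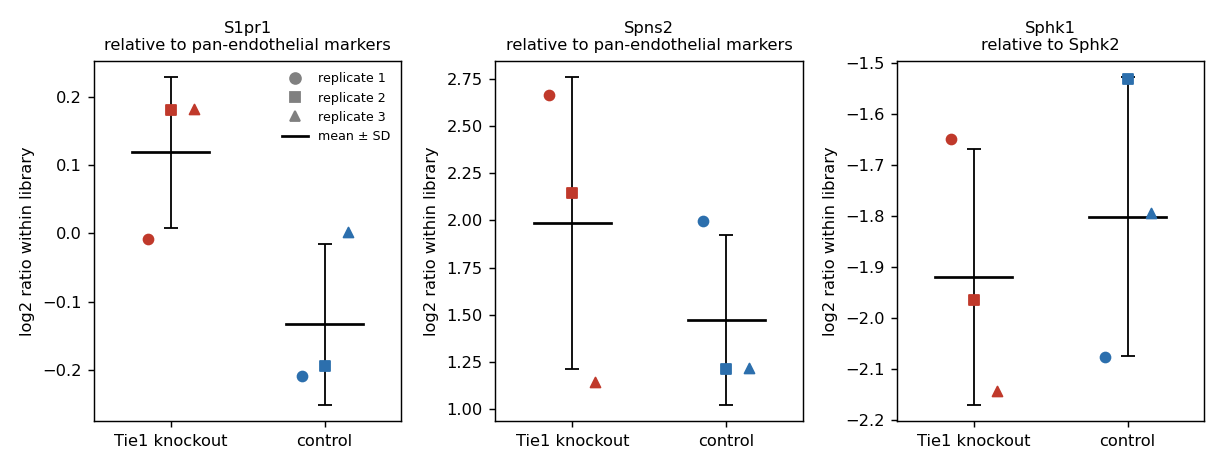
Within-library log2 ratios of S1pr1 and Spns2 to the mean of 17 pan-endothelial markers and of Sphk1 to Sphk2, knockout left of control, with marker shape for the replicate, mean and SD (n = 3 each). The groups overlap in each of the 3 ratios; the S1pr1 means are 0.12 in knockout and -0.13 in control skin.

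Neither kinase gene separated the groups. Sphk1 (gene 20698, chromosome 11, 116530836 to 116536675), the growth factor-responsive kinase of the cytosol, had 20.6, 14.5 and 13.8 CPM in the knockout libraries, against 13.1, 21.3 and 18.7 CPM in the control libraries. Replicate 1 was the highest of its group in the knockout and the lowest in the control. The log2 fold change was -0.12 (SE 0.22, 95% interval -0.65 to 0.41, edgeR adjusted p = 0.926). Its size and sign depended on single libraries. Without replicate 1 of both groups Sphk1 stood at -0.50 (SE 0.12, edgeR adjusted p = 0.117), without control library 2 at 0.028, and with the posterior Hox score at 0.31, none past the test.

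Sphk2 (gene 56632, chromosome 7, 45709463 to 45718002), the kinase found also in the nucleus and mitochondria, had 64.7, 57.0 and 61.3 CPM in knockout skin and 55.7, 61.7 and 65.0 CPM in control skin. The groups covered nearly the same range, and the log2 fold change of 0.0045 (SE 0.082; adjusted p = 0.996 by edgeR) had a 95% interval of -0.19 to 0.20. Its sign turned in 6 of 18 alternative settings. Its counts carry a reservation. In the GENCODE M21 annotation of GRCm38, the span of Sphk2 overlaps that of the ribosomal protein gene Rpl18, on the opposite strand, by 2546 bases. These spans run from the first to the last base of each gene, introns included. Rpl18 held 12054 to 15508 reads a library against 1129 to 1316 for Sphk2. The sources used here do not say if counting was strand-aware. How much of the overlap is exon of both genes was not measured, so any reads counted for the wrong gene cannot be sized.

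The balance of the kinases differed by less than its spread between libraries. The log2 ratio of Sphk1 to Sphk2 was -1.65, -1.96 and -2.14 in the knockout libraries, against -2.08, -1.53 and -1.79 in the control libraries. The difference was -0.12 (two-sided exact permutation p = 0.6, adjusted p = 0.6 over the 3 ratios), and control library 2 decided its sign, since it was 0.017 without that library.

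Sgpl1 (gene 20397, chromosome 10, 61098642 to 61147684), the lyase that irreversibly cleaves the lipid, was the steadiest of the 7 genes. Its level was 174, 170 and 170 CPM in the knockout libraries, against 161, 166 and 167 CPM in the control libraries. It was the 1 gene of the 7 whose groups did not overlap, with every knockout library above every control, beside 7.03% of all genes tested that were separated in that direction. The difference was small, 171 ± 2.14 against 165 ± 3.01 CPM (SD, n = 3 each), a log2 fold change of 0.056 (SE 0.055, 95% interval -0.073 to 0.19, edgeR adjusted p = 0.846). Over the 6 libraries the SD of its log2 CPM was 0.037, and 1.37% of the 12270 genes at a mean of 5 CPM or more had a smaller one.

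Spns2 (gene 216892, chromosome 11, 72451638 to 72489976), the exporter that endothelial cells use to release the lipid, had the largest fold change and the largest spread of the 7. Its levels were 231, 165 and 91.7 CPM in the knockout libraries, against 164, 86.4 and 90.5 CPM in the control libraries. Knockout libraries 1 and 2 and control library 1 were high, and the other 3 lay together between 86.4 and 91.7 CPM. The means, 162 ± 69.6 and 114 ± 43.8 CPM (SD, n = 3 each), gave a log2 fold change of 0.51 (SE 0.40, 95% interval -0.48 to 1.51, edgeR adjusted p = 0.821). Single libraries moved it from one end to the other of a wide range, to 0.17 without knockout library 1 and to 0.88 without control library 1. In spread it stood near the top of the table, since 98.0% of the 12270 genes had a smaller SD of log2 CPM.

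Spns2 was set against endothelial content too. Relative to the pan-endothelial markers it stood at 2.66, 2.15 and 1.14 in the knockout libraries and at 1.99, 1.21 and 1.22 in the control libraries, a difference of 0.51 (two-sided exact permutation p = 0.4, adjusted p = 0.6 over the 3 ratios). The 6 lymphatic endothelial markers, of which 0 were called, summed to 185 to 245 CPM in knockout and 185 to 248 CPM in control skin. Their members lay on both sides, with Lyve1 at 104 to 162 CPM in knockout against 64.4 to 93.8 CPM in control skin, and Prox1 at 8.39 to 10.3 CPM in knockout against 12.3 to 22.5 CPM in control skin. Reln and Ccl21a also lay lower in every knockout library, Ccl21a at 4.43 to 19.2 CPM against 38.3 to 56.9 CPM in control skin. In Flt4 and Mmrn1 the groups overlapped. Of all genes tested, 7.03% were separated higher and 6.78% lower. The mean log2 CPM of the 6 lymphatic markers was 4.39, 4.22 and 4.67 in the knockout libraries, against 5.12, 4.75 and 5.08 in the control libraries, without overlap. Among the knockouts this mean was highest in library 3, where Spns2 was lowest. Among the controls it was highest in library 1, where Spns2 was highest, and lowest in library 2, where Spns2 was lowest. The part of lymphatic cells in the Spns2 spread was not tested.

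Set beside each other per length, the genes kept nearly the same order in both genotypes. Levels are given as CPM per kilobase of exon, with the exon length of each gene taken over its coding transcripts in GENCODE M21. Spns2 and Sgpl1 were the most abundant, at 50.1 ± 21.5 and 41.4 ± 0.519 CPM per kilobase in knockout skin and 35.1 ± 13.5 and 39.8 ± 0.730 in control skin, with overlapping ranges. With these lengths S1pr3 followed as the most abundant receptor, at 20.2 ± 1.04 in knockout and 17.5 ± 2.17 in control skin. Sphk2 came next, at 14.7 ± 0.931 and 14.6 ± 1.13.

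S1pr1 stood at 13.7 ± 1.81 CPM per kilobase in knockout and 11.7 ± 1.04 in control skin, and S1pr2 at 10.7 ± 0.952 and 10.4 ± 1.53. The S1pr2 value depends on the annotation. Its exon length here was 6394 bases, from a GENCODE span that begins at 20962361, while the RefSeq span begins at 20965952. The sources used here do not say which gene model was counted. A shorter length would raise S1pr2, so its place among the receptors is not settled. The ranges of S1pr1 and Sphk2 overlapped in the knockout libraries and those of S1pr1 and S1pr2 in the control libraries. Sphk1 stood lower, at 4.19 ± 0.957 and 4.55 ± 1.07, overlapping S1pr5 in both groups. S1pr5, a receptor of natural killer cells and oligodendrocytes, was at 4.21 ± 1.76 in knockout and 3.43 ± 0.573 in control skin. The lymphocyte receptor gene S1pr4 was the least abundant, at 0.764 ± 0.144 and 0.676 ± 0.168.

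**Figure D3:**
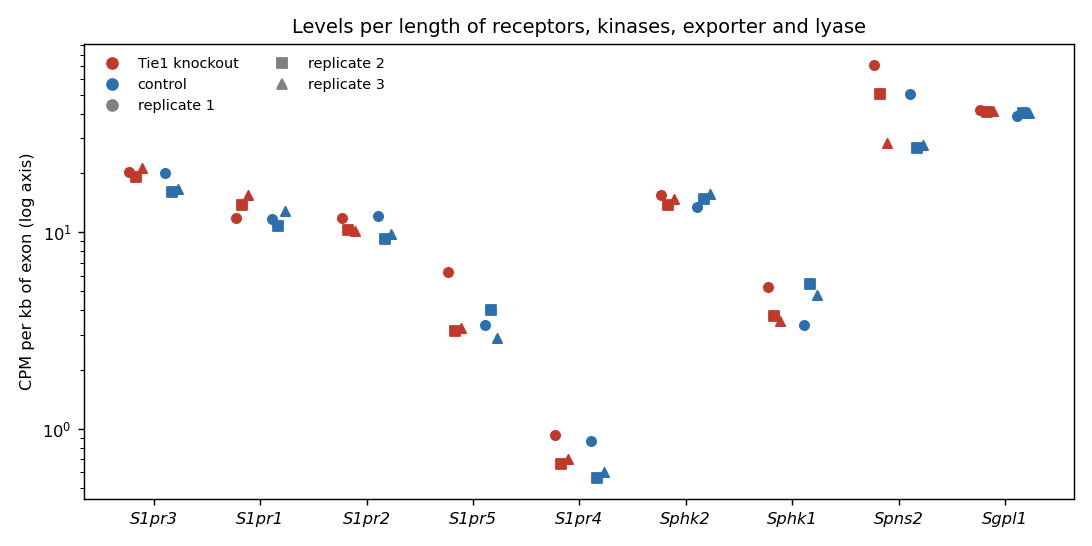
CPM per kilobase of exon on a log axis for the 5 receptor genes, both kinases, the exporter and the lyase in each library, knockout left of control for each gene, with marker shape for the replicate. Levels run from 0.560 for S1pr4 to 71.2 for Spns2, and in each gene but Sgpl1 the groups overlap.

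The wider pathway was read from a list of 45 other genes, of which 43 were tested. None was called by edgeR over the whole table or by limma-voom, beside 0.160% and 0.0998% of all genes tested. DESeq2 called 1, beside 1.24% of all genes. Before adjustment 3 had an edgeR p under 0.05, beside 7.42% of all genes. Fold changes went both ways, 27 above 0 and 16 below, beside 7693 above and 7342 below over all 15035 genes. The median log2 fold change was 0.047, beside 0.0038 over all genes. The groups did not overlap in 2 genes that were higher, Abca1 and Degs1, and in 3 that were lower, Arrb1, Cd69 and Cers6 (7.03% and 6.78% of all genes tested). Apom and Sptssb had too few reads to be tested, at most 9 and 5 in any library.

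Among exporters and carriers, Abca1, a lipid efflux pump of macrophages and other cells that has been linked to release of the lipid, stood at 78.5, 94.5 and 92.1 CPM in knockout skin and at 63.6, 58.6 and 66.4 CPM in control skin. All knockout libraries lay above all controls. Its log2 fold change of 0.49 (SE 0.090) did not pass edgeR's test (adjusted p = 0.140) and did pass DESeq2 (adjusted p = 0.00259). It also passed edgeR without replicate 1 of both groups (adjusted p = 0.0168) and with the hair follicle score as a covariate (adjusted p = 0.0390). Abca1 was the 1 gene of the list that DESeq2 called, beside 1.24% of all genes. The 6 macrophage markers, with 0 called, summed to 327 to 374 CPM in knockout and 231 to 308 CPM in control skin, and their part in the Abca1 values was not tested. Mfsd2b, the exporter of red blood cells and platelets, was low at 2.10 ± 0.0640 and 1.93 ± 0.614 CPM, and Abcc1 stood at 53.4 ± 1.51 and 49.4 ± 8.10 CPM (edgeR adjusted p = 0.937 and 0.864).

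The receptor genes outside the 7 were not called. S1pr5 was at 15.6, 7.88 and 8.10 CPM in the knockout libraries, against 8.39, 10.1 and 7.26 CPM in the control libraries, and S1pr4 was at 1.82 ± 0.342 and 1.61 ± 0.400 CPM. Their log2 fold changes were 0.29 (SE 0.29) and 0.17 (SE 0.27), at adjusted p = 0.850 and 0.907 by edgeR. Knockout library 1 alone carried the S1pr5 value, which was -0.10 without it.

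Of 11 genes that couple to the receptors or withdraw them from the surface, 0 were called, 7 had a log2 fold change above 0 and 4 below, and the median was 0.046. The lowest 2 values of the wider list were those of Cd69 and Arrb1. Arrb1, a beta-arrestin that takes up activated receptors, had 51.3, 51.1 and 54.0 CPM in knockout skin and 73.4, 65.0 and 59.1 CPM in control skin. The log2 fold change came to -0.34 (SE 0.089; adjusted p = 0.352 by edgeR). Cd69, the activation antigen of lymphocytes that pulls S1PR1 inside, had 13, 15 and 12 reads in the knockout libraries and 24, 28 and 18 reads in the control libraries, or -0.78 on the log2 scale (SE 0.29; adjusted p = 0.577 by edgeR). The 5 T cell markers, of which 2 were tested and 0 called, summed to 3.39 to 4.91 CPM in knockout and 5.25 to 5.92 CPM in control skin. Most of each sum was Lck, at 2.40 to 4.02 CPM in knockout and 4.06 to 4.44 CPM in control skin. The untested Cd3e, Cd3d and Cd2 were at 0.347 CPM or less in every library. The part of the T cell markers in the Cd69 reads was not tested. The G protein gene Gnai1 stood at -0.12 (SE 0.086, edgeR adjusted p = 0.806).

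Enzymes around the lipid showed no call either. Of 6 genes that dephosphorylate it or clear its aldehyde product, Sgpp2 had a log2 fold change of 0.39 (SE 0.21), Sgpp1 of 0.25 (SE 0.19) and Plpp2 of -0.12 (SE 0.12), with edgeR adjusted p = 0.725, 0.814 and 0.851. Of 5 ceramidase genes, whose products free sphingosine for the kinases, Acer2 stood at 0.28 (SE 0.14), Asah1 at 0.14 (SE 0.098) and Asah2 at 0.38 (SE 0.34), with edgeR adjusted p = 0.706, 0.784 and 0.834. Ceramide synthesis, which also builds the epidermal barrier, was covered by 16 tested genes with a median log2 fold change of 0.00049. In that list Degs1, the desaturase of its last step, stood at 0.27 (SE 0.12), Cers6 at -0.14 (SE 0.073) and Cers2 at -0.13 (SE 0.072), with edgeR adjusted p = 0.684, 0.715 and 0.724.

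**Figure D4:**
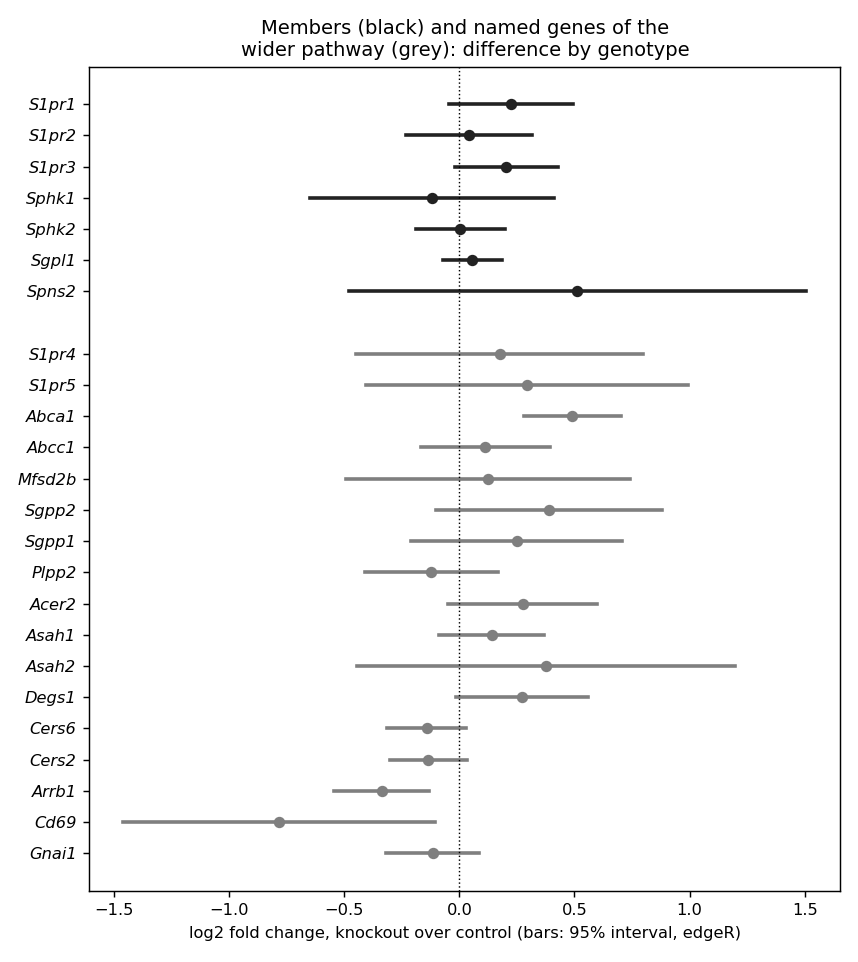
Log2 fold change, knockout over control, with its 95% interval (edgeR, not adjusted for the number of genes) for the 7 genes (black) and 17 named genes of the wider list (grey). Each of the 7 black intervals covers 0; Spns2 has the widest, -0.48 to 1.51, and Sgpl1 the narrowest, -0.073 to 0.19.

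Several genes of the pathway stood out in a single library. Knockout library 1 was the highest of the 6 in 15 of the 43 tested genes of the wider list (34.9%), beside 21.0% of all genes tested, and control library 1 was the lowest in 20 (46.5%), beside 21.6%. Named after their values were seen, the epidermal ceramide synthase gene Cers3 stood at 82.1 CPM in knockout library 1 and 33.9 to 38.7 CPM in the other knockout libraries, against 33.1 to 38.1 CPM in control skin. Sptlc3, a subunit of serine palmitoyltransferase, stood at 49.9 CPM in knockout library 1 and 20.6 to 20.8 CPM in the other knockout libraries, against 18.6 to 24.7 CPM in control skin. The ceramidase gene Asah2 likewise had 105 CPM in knockout library 1 and 47.8 to 48.0 CPM in the other knockout libraries, against 44.6 to 58.3 CPM in control skin. The 6 suprabasal keratinocyte markers summed to 20602 to 26316 CPM in knockout skin, the highest in library 1, and to 16805 to 30677 CPM in control skin, the lowest in library 1. The 6 did not move together. In knockout library 1 Lor, Sbsn and Ivl had their highest values of all libraries, at 5058, 1815 and 381 CPM. Flg had its lowest there, at 504 CPM, and Krt1 and Krt10 were highest in control library 2. The part of these markers in the Cers3, Sptlc3 and Asah2 values was not tested.

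**Figure D5:**
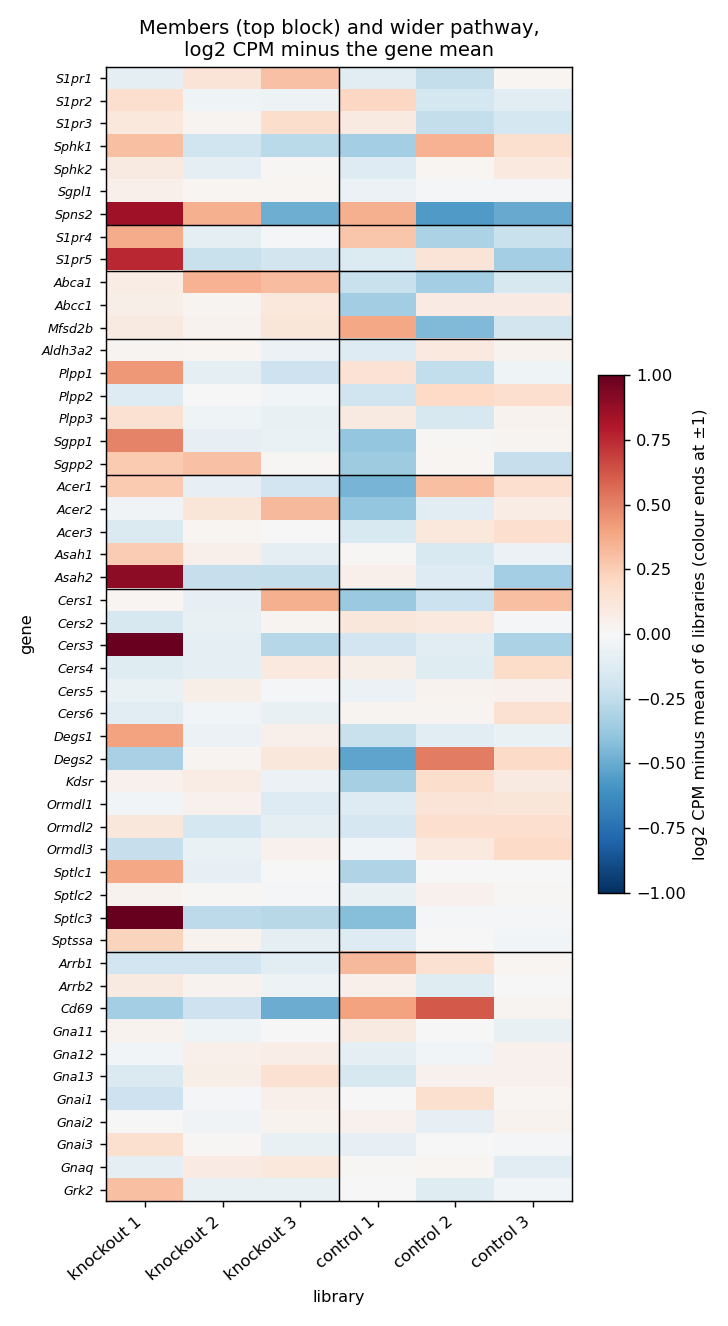
Log2 CPM minus the gene's mean over the 6 libraries for the 7 genes (top block) and the 43 tested genes of the wider list, in blocks by role, with knockout libraries left and control libraries right of the line. The deep red cells of Cers3, Sptlc3, Asah2 and Spns2 lie in knockout library 1, and no block is red on one side and blue on the other throughout.

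The genes whose log2 CPM followed each of the 7 most closely over the 6 libraries were looked up among 12269 others at a mean of 5 CPM or more. With so few libraries many genes reach a high correlation, and between 83 and 229 genes had a Pearson r over 0.9 with each of the 7, so the names describe these libraries only. For S1pr1 they were Rpl14, 4933434E20Rik and Kcnc1 (r = 0.991, 0.984 and 0.982). For S1pr2 they were Spats2l, Epb41l2 and Rassf2 (r = 0.994, 0.994 and 0.993), and for S1pr3 Htra2, Syde1 and Smyd2 (r = 0.993, 0.988 and 0.983). Sphk1 was followed by Zmiz2 and Arhgap24 (r = 0.993 and 0.992) and Sphk2 by Sgta, Vps52 and Rdh11 (r = 0.995, 0.988 and 0.978). Nearest to Sgpl1 were Ndufa4l2, Pdcd10 and Hook2 (r = 0.992, 0.991 and 0.988). Nearest to Spns2 were Ogn, Lce1m and Kat6b (r = 0.992, 0.991 and 0.990). Ogn had 124, 101 and 78.2 CPM in the knockout libraries and 107, 78.3 and 80.9 CPM in the control libraries. Lce1m, which encodes a protein of the cornified envelope of the epidermis, had 1000, 809 and 567 CPM in knockout and 802, 582 and 615 CPM in control skin. Kat6b had 60.4, 53.1 and 44.2 CPM in knockout and 52.6, 43.4 and 41.8 CPM in control skin. From which cells the Spns2 spread came was not tested.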

How the data were processed

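Whole-skin poly(A) RNA was sequenced, per the labels' protocols. The authors deposited 1 estimated count (expected count) per gene and library, not normalized, with 31.0 to 31.9% of values not whole (tolerance 0.001). Build GRCm38.p6, RSEM 1.2.12, Bowtie2 2.2.5 and HISAT2 2.0.4 appear in the submitters' processing notes without a role. Coordinates (1-based) are from a RefSeq gene table of that build, strands and exons from GENCODE M21.

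Counts were rounded, filtered with filterByExpr (minimum count 10) and TMM-scaled. Genotype was tested with edgeR 4.0.16 (R 4.3.3), a robust quasi-likelihood fit checked on simulated data, with Benjamini-Hochberg adjustment over 15035 genes. The SE is the fold change over the square root of F, and intervals use its t quantile without adjustment for the number of genes. Ratios used log2 CPM with prior count 2. The members, lists and tests were chosen with earlier results of these data known. Named genes were the 7 members, Tie1, S1pr4, S1pr5, the 3 smallest p of each other pathway list, and the 3 nearest correlates of each member, of which 1 is not reported here. Alternatives included DESeq2 1.42.0, limma 3.58.1 (voom), other scalings, filters and covariates, and libraries left out. A count of 3 reads was 0.147 to 0.155 CPM.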

Additional observations from a re-analysis of the deposited data

How the results depend on the processing

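None of the 7 genes was called in any of 18 alternatives, and S1pr1, S1pr3, Sgpl1 and Spns2 kept their direction in all 18. None of the log2 fold changes that changed sign was called. S1pr2 stood at -0.032, -0.039 and -0.0053 without knockout replicate 1, control replicate 2 and control replicate 3, and at -0.10 with the posterior Hox score. Sphk1 stood at 0.028 without control replicate 2 and at 0.31 with the Hox score. Sphk2 stood at -0.027 with upper-quartile scaling, -0.0022 with no filter, -0.040 and -0.055 without knockout replicate 1 and control replicate 1, -0.099 without both, and -0.0071 with the pan-endothelial score. In the wider list, without knockout replicate 1 S1pr5 was at -0.10 and Asah2 at -0.10, without control replicate 1 Abcc1 at -0.018, and without control replicate 2 Mfsd2b at -0.055. Without replicate 1 of both groups S1pr5, Abcc1, Sgpp1 and Asah2 were at -0.12, -0.016, -0.089 and -0.0029, and with the Hox score S1pr4, Mfsd2b and Plpp2 at -0.047, -0.22 and 0.090. With 1 library left out, the highest values of S1pr2, Sphk2, S1pr5, Abcc1, Mfsd2b and Asah2 were 0.17, 0.049, 0.46, 0.18, 0.41 and 0.57, and the lowest of Sphk1 was -0.32. The cause was not tested.

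Of the wider list, 1 gene, Abca1, was called by DESeq2, 1 without replicate 1 of both groups and 1 with the hair follicle score, and 0 in the other 15 alternatives. Over all genes the 24 calls became 38 with no filter, 207 with DESeq2, 15 with limma-voom, 139 without replicate 1 of both groups, and 8, 119 and 5 with the pan-endothelial, hair follicle and Hox scores. With 1 library left out they ranged from 1 to 11, in fits with fewer samples. Tie1 ranged from -4.53 to -4.02 with 1 library left out and missed the test without knockout replicate 2 (-4.10, edgeR adjusted p = 0.0559). The log2 ratio of Sphk1 to Sphk2 ranged from -0.26 to 0.017 with 1 library left out.

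With the replicate number as a block, 52 genes were called over all genes and 0 of the 7, and S1pr1, S1pr3 and Spns2 stood at 0.22, 0.21 and 0.48 (edgeR adjusted p = 0.476, 0.454 and 0.487). Deviations of same-numbered samples correlated at 0.411, 0.0431 and 0.266 over genes. Differently numbered samples were not compared in this way, so these values cannot decide whether the numbers pair the samples. The main fit did not pair them. At this depth the spread between libraries sets the width of the intervals for Spns2 and Sphk1. For Spns2 the SE was 0.40 in the main fit, 0.18 with the block and 0.21 with the hair follicle score. For Sphk1 it was 0.22, 0.27 and 0.25.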
